A study of Mus musculus with 43 samples.

Results

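The 5S rRNA repeat copies are stretches of the mouse genome that resemble 5S ribosomal RNA and were entered one by one into the read counting under the names rmsk_5S_ followed by a number. All rows with such a name were taken as members, which gave 655 copies among 5364 RNAs listed in any of the 3 count tables. The table of epididymis tissue held 647 copies among 4890 RNAs, that of fluid had 203 among 3178 and that of sperm had 332 among 4323, and 202 copies were listed in all 3. The copy numbers ran from 4 to 1304, and the tables gave no genome position for any of them.

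The study compared small RNAs of wild-type mice with those of mice lacking the neighbouring genes Rnase9, Rnase10, Rnase11 and Rnase12 (KO). All animals were FVB males of 8 to 12 weeks. Epididymis tissue was sequenced by ARM-seq, a ligation-based protocol that removes base methylation before cloning, in 3 WT libraries each of caput, corpus and cauda, 3 KO libraries each of caput and cauda and 2 KO libraries of corpus. Epididymal fluid, in 3 libraries per genotype and segment, and cauda sperm, in 4 libraries per genotype, were sequenced by OTTR-seq, in which a reverse transcriptase adds both adapters in 1 reaction. RNA was treated with T4 polynucleotide kinase, which frees blocked 3′ ends, and each fluid and sperm library pooled RNA of 3 mice, whereas tissue libraries are described as biological replicates with no word on pooling. The deletion was made in the germline by CRISPR/Cas9, so that it was not limited to the epididymis. Between tissue and the other materials, material and protocol cannot be told apart. Fluid and sperm shared the protocol, but each material was counted in a table of its own, and no test was run between tables.

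Total counts ran from 30142156 to 249732714 per tissue library, from 1948718 to 12320922 per fluid library and from 1134840 to 62128314 per sperm library. The 6 caput fluid libraries and WT caput epididymis 3 carry a section entry reading Cauda although their titles say caput, and they were grouped by title. Transcripts of Rnase9 to Rnase12 were not among the counted RNAs, so the genotype could not be checked in these tables. MicroRNAs typical of germ cells summed to 0.0247 to 0.421 CPM (depth-normalised counts, here relative to the plain library total) in tissue, 1.85 to 29.8 in fluid and 15.9 to 57.1 in sperm, and all 5 listed epithelial microRNAs were present in every material, at 4.25 to 33.5, 28.3 to 289 and 5.52 to 23.3 CPM. Smooth muscle microRNAs (2 of 2 listed) were above the epithelial ones in tissue, at 18.6 to 231 CPM, and were at 72.3 to 433 CPM in fluid and 4.42 to 20 CPM in sperm. Leukocyte microRNAs (2 of 3 listed in each table) were at 0.0178 to 0.233, 5.20 to 86.7 and 3.86 to 11.3 CPM. Red blood cell microRNAs were at 0 to 0.0442 CPM in tissue, where Mir451a was at 0 in 4 libraries, but at 16.2 to 149 CPM in fluid and 1.04 to 61.6 CPM in sperm. The plain total includes rRNA counts, so these CPM do not rank materials. Relative to counts outside rRNA, smooth muscle microRNAs were at 121 to 1437 CPM in tissue. They were at 84.1 to 465 CPM in fluid and 42.5 to 163 in sperm. Epithelial ones were at 31.2 to 228, 33.1 to 317 and 68.6 to 211 CPM. Germ cell ones were at 0.254 to 3.87, 2.12 to 34.4 and 197 to 350 CPM. Leukocyte and red blood cell ones were lower in tissue (up to 1.41 and 0.287) than in fluid (from 6.03 and 17.4). The part of these cells in the results was not tested. In such bulk samples fewer cells of a type and less RNA per cell cannot be told apart.

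5S rRNA is the smallest RNA of the large ribosomal subunit. It is transcribed by RNA polymerase III, apart from the other nuclear rRNAs, which RNA polymerase I makes as 1 precursor in the nucleolus. Its genes lie in tandem arrays of near-identical repeats, and many mutated, truncated pseudogene copies are scattered over the genome, so that a short fragment of 5S rRNA often matches many places equally well.

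GENCODE M21, on the GRCm38/mm10 assembly used by the study, lists 181 genes of 5S rRNA on 21 chromosomes, of which 42 lie in 1 array on chromosome 8. The rmsk_5S_ copies are not paired here with these genes, because the tables hold neither coordinates nor sequences for the copies.

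Counts were concentrated on a block of consecutive copy numbers. The longest unbroken series of numbers listed in all 3 tables, rmsk_5S_696 to rmsk_5S_746, counted 51 copies, and the next longest 2. This stretch held 93.3% of all 5S copy counts of tissue, 89.3% of those of fluid and 88.9% of those of sperm. Single libraries gave 91.9 to 97.0% (tissue), 87.7 to 90.2% (fluid) and 83.4 to 89.7% (sperm). The stretch was found from the listing of copies, but with their counts in view, and its share is therefore a description.

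Within the stretch, 32 copies carried almost the same count in every library and are called full-count copies below. Summed over all libraries, they differed from lowest to highest by 0.0107% in tissue, 0.167% in fluid and 0.121% in sperm. Library by library the difference was 0.0263 to 0.0736% (tissue), 0.477 to 2.10% (fluid) and 0.259 to 1.77% (sperm). They held 74.3%, 63.3% and 62.2% of all 5S copy counts in these materials. The 3 copies with the highest mean levels were all of this kind, namely rmsk_5S_717, rmsk_5S_743 and rmsk_5S_699 in tissue, rmsk_5S_703, rmsk_5S_745 and rmsk_5S_701 in fluid and rmsk_5S_744, rmsk_5S_730 and rmsk_5S_728 in sperm. Their order carries no information, since neighbours in it differed by far less than libraries of 1 group did.

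The equal counts follow from the way reads were counted. A read was counted on each of the best matches kept for it, up to a cap on alignments per read. Thus 1 molecule could add to many copies, and a sum over copies is larger than the number of reads. The sum over copies divided by the most counted copy, which is the highest possible mean number of copies per read, was 37.5 to 46.4 in tissue, 49.0 to 51.3 in fluid and 50.5 to 55.2 in sperm. The full-count copies are therefore 1 measurement seen 32 times and not 32 independent ones. The reference 5S_rRNA sequence, counted beside the copies, reached 88.3 to 98.1% of the full-count mean in tissue, 88.4 to 97.0% in fluid and 85.6 to 97.0% in sperm.

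**Figure D1:**
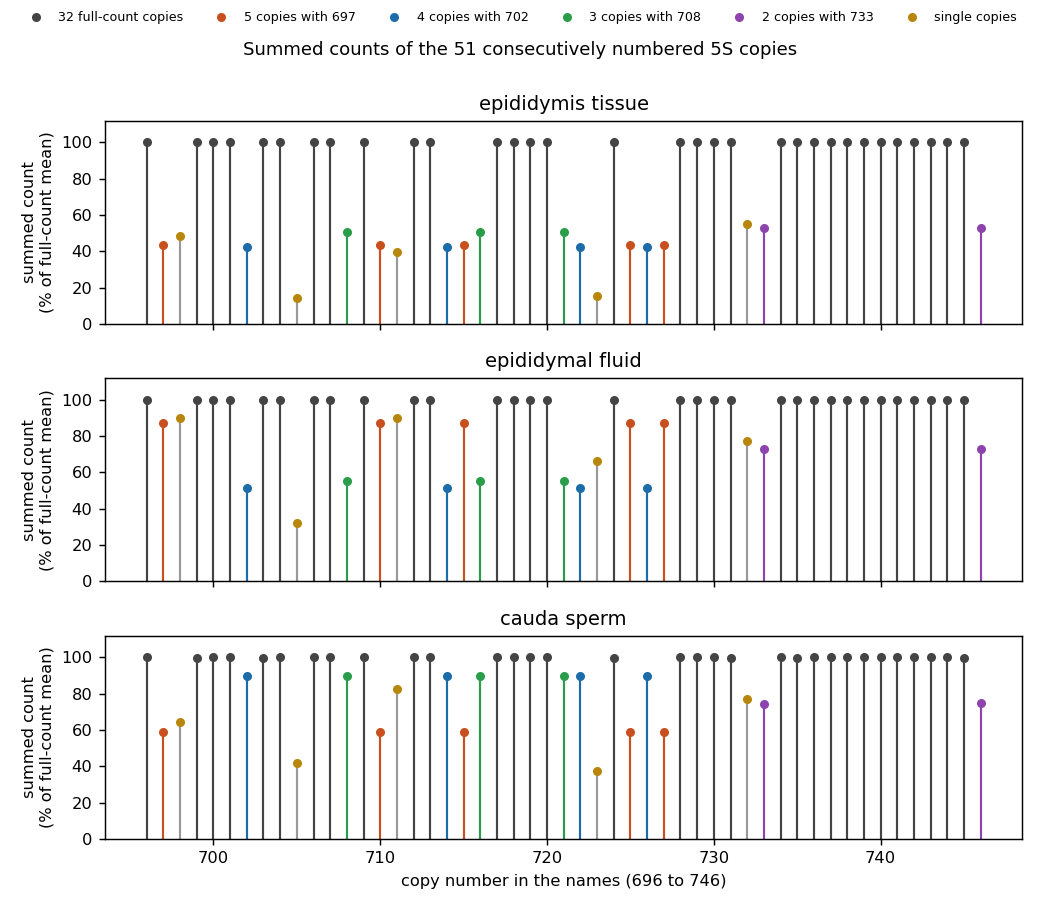
Summed counts of each copy from rmsk_5S_696 to rmsk_5S_746 as a percentage of the mean of the 32 full-count copies, by copy number and material. The full-count copies lie on 1 line at the top, and the other 19 copies lie below it at levels that differ between tissue, fluid and sperm.

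The other 19 copies of the stretch fell into sets of equal counts, taken as copies whose summed counts lay within 1% of each other in every table. One set held 5 copies (rmsk_5S_697, rmsk_5S_710, rmsk_5S_715, rmsk_5S_725 and rmsk_5S_727), another 4 (rmsk_5S_702, rmsk_5S_714, rmsk_5S_722 and rmsk_5S_726), another 3 (rmsk_5S_708, rmsk_5S_716 and rmsk_5S_721) and another 2 (rmsk_5S_733 and rmsk_5S_746), and 5 copies stood alone (rmsk_5S_698, rmsk_5S_705, rmsk_5S_711, rmsk_5S_723 and rmsk_5S_732). These sets were found from the counts and no test was run on them.

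The order of the sets differed between materials. The set of rmsk_5S_697 had a median level of 44.1% of the full-count mean in tissue, with libraries from 31.8 to 68.9%, of 87.5% in fluid (79.8 to 91.5%) and of 64.7% in sperm (53.6 to 77.2%). The set of rmsk_5S_702 stood at 24.4% in tissue (10.4 to 64.3%), 50.1% in fluid (34.1 to 61.1%) and 90.8% in sperm (87.4 to 95%). Thus the set of rmsk_5S_697 was the higher in every fluid library and the lower in every sperm library, with no overlap between the sets in either material. The set of rmsk_5S_708 stood at 31.6% (12.1 to 74.5%), 55.1% (39.0 to 63.5%) and 89.97% (76.4 to 92.9%) in tissue, fluid and sperm, close to the set of rmsk_5S_702. Among the single copies, rmsk_5S_723 was at 10.8% in tissue (4.15 to 22.2%), 66.6% in fluid (57.5 to 77.5%) and 36.7% in sperm (24 to 54.5%), and rmsk_5S_705 at 10.5% (3.63 to 20.7%), 31.8% (21.4 to 41.1%) and 41.1% (35.6 to 50.3%).

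In tissue the libraries numbered 3 stood apart. The set of rmsk_5S_702 was at 59.9, 61.3 and 58.6% of the full-count mean in WT caput, corpus and cauda 3 and at 64.3 and 61.9% in KO caput and cauda 3, whereas the 12 libraries numbered 1 or 2 lay between 10.4 and 36.8%. No library numbered 1 or 2 came near the level of those numbered 3, whatever its genotype or segment. Within numbers 1 and 2 the level was 34.1 and 31.8% in WT caput, 18.6 and 19.0% in WT corpus and 17.9 and 10.4% in WT cauda. In KO it was 36.8 and 24.1% in caput, 20.7 and 24.4% in corpus and 11.7 and 13.2% in cauda. Caput lay above cauda in every such library of both genotypes, and the ranges of caput and corpus met in KO. The single copy rmsk_5S_723 followed the same course within numbers 1 and 2, with 14 and 15.4% in WT caput against 7.79 and 4.57% in WT cauda, and 14 and 10.8% in KO caput against 4.15 and 4.76% in KO cauda. The libraries numbered 3 also spread their counts over more copies. Their effective number of copies, the inverse of the summed squared shares, was 52.8 to 54.7 against 41.8 to 50.7 in numbers 1 and 2. Their reference 5S_rRNA count was 88.3 to 90.6% of the full-count mean against 94.7 to 98.1%. The labels do not say what the numbers stand for. KO corpus has no library numbered 3, so its comparison with WT corpus sets 2 such libraries against a group that includes 1 numbered 3.

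In sperm the set of rmsk_5S_697 was at 66.9, 72.2, 77.2 and 70.0% of the full-count mean in the WT libraries and at 62.3, 55.2, 53.6 and 62.5% in the KO libraries. The 2 genotypes did not overlap. In fluid it was at 85.3, 90.2 and 90.4% in WT caput and 79.8, 81.2 and 83.3% in KO caput, again with no overlap, while the genotypes overlapped in corpus and cauda fluid. The set was picked from these counts, so that this is given without a test.

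**Figure D2:**
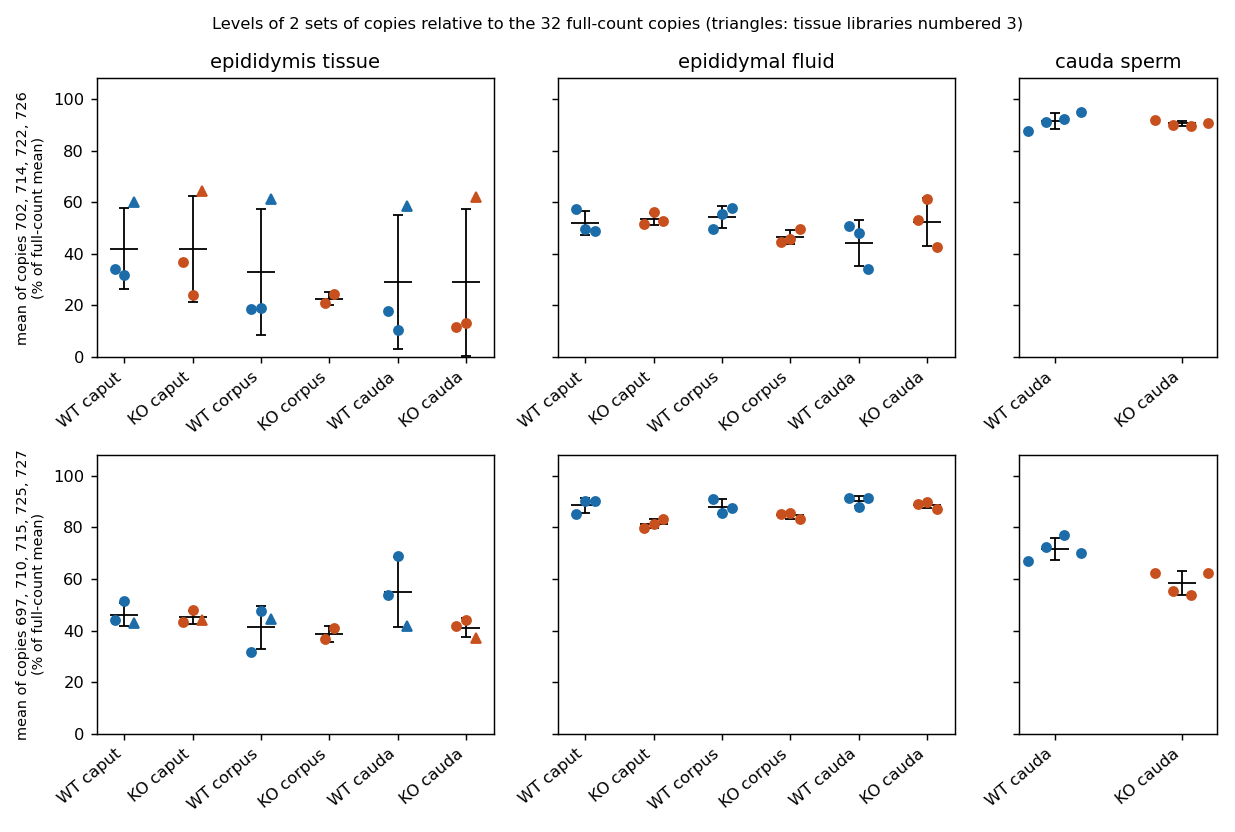
Mean level of the 4 copies of the set of rmsk_5S_702 (upper row) and the 5 of the set of rmsk_5S_697 (lower row) as a percentage of the full-count mean of the library, with 1 point per library (blue WT, orange KO, triangles for tissue libraries numbered 3) and bars for the group mean ± SD. The triangles of the upper row lie at 58.6 to 64.3%, above the other tissue libraries, and in sperm the upper set lies above the lower one.

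The copies outside the stretch were many and thinly counted. Tissue had 596 of them, fluid 152 and sperm 281. Together they held 6.68, 10.7 and 11.1% of the 5S copy counts of these materials. The most counted of them was rmsk_5S_377 in tissue and fluid, with 0.994 and 1.52% of copy counts, and rmsk_5S_850 in sperm, with 0.942%. Copies with at least 1 count numbered 497 to 644 in a tissue library, 160 to 200 in a fluid library and 231 to 332 in a sperm library, and those with at least 10 counts 272 to 552, 106 to 164 and 138 to 279. The 10 most counted copies of a library held 21.6 to 26.6% of copy counts in tissue, 19.5 to 20.4% in fluid and 18.1 to 19.8% in sperm. To reach 90% of copy counts took 36 to 48 copies in tissue, 47 to 52 in fluid and 51 to 61 in sperm.

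Across libraries, the full-count copies moved as the reference sequence did, and most outside copies did not. Pearson's r between log2(CPM + 0.5) of a copy and of 5S_rRNA, where CPM from here on is scaled by the trimmed mean of M values (TMM), was 0.998 for every full-count copy over the 17 tissue libraries. It was 0.996 to 0.997 over the 18 fluid libraries and 0.997 over the 8 sperm libraries. Full-count copies and reference share most reads, and all values of a library share its depth, so these are descriptions. The copies of the stretch that were not full-count had r from -0.69 to 0.94 in tissue, 0.80 to 0.996 in fluid and 0.84 to 0.999 in sperm. Outside the stretch the copies most like 5S_rRNA were rmsk_5S_377 in tissue (r = 0.94) and in fluid (0.97) and rmsk_5S_169 in sperm (0.97), while the median outside copy had r = -0.23, 0.25 and 0.67. In tissue the next copy after rmsk_5S_377 was rmsk_5S_1018, at 0.46.

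The share of all counts that fell on 5S copies was far larger in tissue than in the other materials. It ran from 63.3 to 81.6% over tissue libraries, with a median of 77.9%, from 2.68 to 6.69% over fluid libraries, with a median of 4.73%, and from 2.61 to 10.8% over sperm libraries, with a median of 8.49%. These shares count a shared read once for each copy. The single most counted copy held 1.38 to 2.02% of all counts in tissue, 0.0537 to 0.133% in fluid and 0.0473 to 0.211% in sperm.

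By segment, the tissue share was 79.7% ± 0.994 (SD, n = 3) in WT caput, 77.5% ± 1.76 (n = 3) in WT corpus and 67.6% ± 4.69 (n = 3) in WT cauda. In KO tissue it was 80.4% ± 1.15 (n = 3) in caput, 78.4% ± 0.762 (n = 2) in corpus and 72.4% ± 1.03 (n = 3) in cauda. In both genotypes every cauda library lay below every caput library. The 2-sided exact permutation test gave p = 0.1 for each, which is the smallest value that 3 libraries against 3 allow, and an adjusted p of 0.6 over the 39 comparisons of 3 concentration measures. The share is bound to the other rRNAs of the library. As a ratio to the counts outside rRNA, the 5S copies were at 4.55, 4.82 and 5.83 in WT caput and 4.74, 7.47 and 3.82 in WT cauda. In KO the ratio was 5.35, 4.69 and 5.56 in caput and 5.25, 5.97 and 7.09 in cauda. Both pairs of groups overlapped, with log2 ratios of the means of 0.08 in WT and 0.23 in KO, and the WT value was -0.24 without WT cauda 2. In fluid the share was 4.52% ± 0.505 in WT caput, 5.70% ± 1.41 in WT corpus and 4.98% ± 1.26 in WT cauda, and 3.85% ± 0.694, 5.28% ± 1.40 and 4.94% ± 2.01 in the same KO segments (n = 3 each). These groups overlapped.

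Between genotypes, the sperm libraries gave shares of 6.84, 2.61, 9.12 and 7.73% in WT and 9.30, 10.8, 8.92 and 8.06% in KO, or 6.57% ± 2.81 and 9.27% ± 1.14 (n = 4 each). The 2-sided exact permutation test gave p = 0.0857, with an adjusted p of 0.6. WT sperm 2, 3 and 4 and KO sperm 4 held 1134840 to 3618739 counts and the other 4 libraries 42764979 to 62128314, so that depth and genotype are partly bound together, and the deep WT library (6.84%) lay below the 3 deep KO libraries (8.92 to 10.8%). The 10 most counted copies held 19.6% ± 0.0915 of copy counts in KO sperm and 18.7% ± 0.708 in WT sperm (exact p = 0.0286, the smallest possible, adjusted p = 0.6). The lowest adjusted p of the 39 comparisons was 0.6, and in 4 of them the groups did not overlap.

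**Figure D3:**
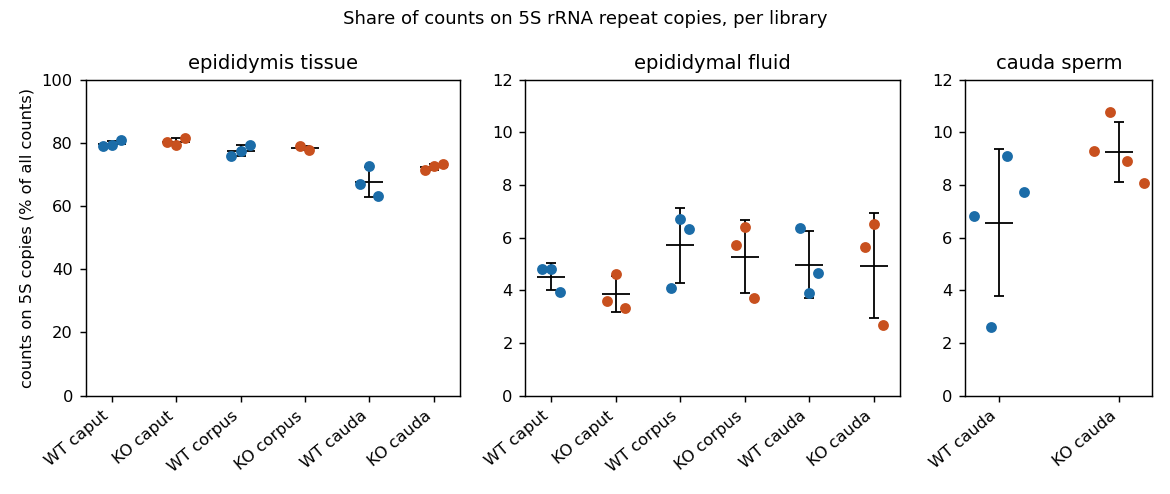
Share of all counts on 5S copies in each library (percent, axes from 0 with a scale per material), by segment and genotype, with 1 point per library and bars for the group mean ± SD. Every cauda tissue library lies below every caput tissue library, and the fluid groups overlap.

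Single copies were then compared with the quasi-likelihood test of edgeR on counts, fitted over all RNAs of a table. After the filter on low counts, 510 copies were tested among 3488 RNAs in tissue, 156 among 2023 in fluid and 234 among 2480 in sperm. A copy was called at an adjusted p (Benjamini-Hochberg) under 0.05 with a log2 fold change above 1 in size. In this fit every called copy lay outside the numbered stretch, and calls within it came from fits with fewer libraries or with the library number as a block, given below. Fold changes below are on the log2 scale.

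In tissue, 72 of the 510 copies fell from WT caput to WT cauda and 0 rose. That is 14.1% of the copies, where 7.28% of all RNAs fell and 15.7% rose. Higher in WT cauda were 0 copies also at an unadjusted p under 0.05 (19.1% of all RNAs) and by DESeq2 (12.0%). DESeq2 called 87 lower (13.4% of 647 copies, against 6.31% of all RNAs). The log2 fold changes of the 72 ran from -2.86 to -1.0 with a median of -1.35, and for 68 of them the libraries of both segments did not overlap. The 72 were picked for their difference in these same libraries, so that number is no further support. They were low-count copies: their mean level in WT cauda ran from 0.0101 to 259 CPM, and 13 of them had a mean over 10 CPM. The copy with the smallest p was rmsk_5S_1141, at 6.34, 7.25 and 5.95 CPM in WT caput and 2.19, 2.14 and 2.73 CPM in WT cauda (log2 fold change -1.46, SE 0.27, adjusted p = 0.000711, edgeR). Its levels in WT corpus lay between, at 3.57, 4.39 and 5.37 CPM. The copy rmsk_5S_165 ran alongside it, with 7.28, 7.95 and 6.55 CPM in caput and 2.46, 2.60 and 3.09 CPM in cauda (-1.42, SE 0.27, adjusted p = 0.00073). The number of calls was 36 without WT caput 1 (7.2%, against 3.12% of all RNAs lower) and 30 without WT cauda 2 (5.88%, against 1.71%). It was 44 without WT cauda 3. In that last fit 39 copies were lower (7.75%, against 2.99% of all RNAs) and 5 higher (0.994%, against 15.3%), the 5 all in the stretch. With the libraries numbered 1 and 2 alone 70 were lower (15.02%, against 6.62% of all RNAs). In the same fit 7 were higher (1.502%, against 19.8% of all RNAs), of which 6 lay in the stretch.

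From KO caput to KO cauda tissue, 14 copies fell (2.75% of copies; 8.6% of all RNAs) and 1 rose (0.196% of copies; 17.1% of all RNAs). The copy rmsk_5S_321 was at 4.06, 3.71 and 3.67 CPM in KO caput and 0.857, 1.06 and 1.12 CPM in KO cauda (log2 fold change -1.90, SE 0.37, adjusted p = 0.00109, edgeR). In WT it was at 5.04, 4.57 and 2.06 CPM in caput and 1.96, 1.41 and 0.943 CPM in cauda. rmsk_5S_1118 fell by 2.03 (SE 0.48, adjusted p = 0.00423), and rmsk_5S_1009, the copy that rose, went from 0.149 ± 0.0373 to 0.345 ± 0.0193 CPM (log2 fold change 1.18, adjusted p = 0.0187), where its fold change in WT was -0.29. The adjusted p of rmsk_5S_1009 was 0.0548 with DESeq2 and 0.588 with scaling by library totals alone, and without KO caput 2 or KO cauda 2 it was 0.0740 or 0.0512. That of rmsk_5S_1118 was 0.0534 among the libraries numbered 1 and 2. Another called copy, rmsk_5S_818, had 3 counts in all KO cauda libraries together and 49 in KO caput, a ratio of 0.282 with an exact interval of 0.0563 to 0.874 that covers counting error only. With the library number as a block, which pairs these libraries, 28 copies fell (5.49%, against 12.3% of all RNAs) and 1 rose (0.196%, against 21.4%). The count of calls was 57 without KO cauda 3. Of these, 33 were higher (6.47%, against 20.4% of all RNAs), 32 of them the full-count copies, and 24 lower (4.71%, against 10.7%). The count was 9 without KO caput 1 or without KO caput 2, and 7 without KO cauda 2. Among the libraries numbered 1 and 2 it was 51, with 40 higher (8.58%) and 11 lower (2.36%, against 6.58% of all RNAs). Of those 40, 38 lay in the stretch, the 32 full-count copies among them, and 30.0% of all RNAs were called higher in that fit.

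The 2 genotypes shared 7 of the copies that fell from caput to cauda tissue, which is 9.72% of the WT list and 50% of the KO list: rmsk_5S_321, rmsk_5S_402, rmsk_5S_425, rmsk_5S_468, rmsk_5S_1025, rmsk_5S_1079 and rmsk_5S_1118. Of the 72 WT calls, 69 had a negative fold change in KO, with a median of -0.69, and all 14 KO calls had one in WT, with a median of -1.28. Most outside copies were negative whether called or not, namely 374 of the 459 tested in KO and 435 of 459 in WT. The like signs are therefore no further support. The difference between genotypes in the change from caput to cauda was called for 0 copies, where 0% of all RNAs were called by edgeR. At an unadjusted p under 0.05 it was positive for 27 copies (5.29% of 510; 2.38% of all RNAs) and negative for 0 (3.67% of all RNAs), and DESeq2 called 0. Of the 27, 0 lay in the stretch. How many reads the outside copies share cannot be read from the tables, so such counts are not of independent features.

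Between WT caput and WT corpus tissue edgeR called 0 of the 510 copies, where 11.8% of all RNAs were called in either direction. At an unadjusted p under 0.05, 17 copies were lower (3.33%, against 6.88% of all RNAs) and 0 higher (16.9% of all RNAs). DESeq2 called 8, all lower (1.24%, against 3.46% of all RNAs). With the library number as a block 9 copies fell (1.76%, against 3.76%). The count was 4 without WT caput 3 (0.797%, against 4.15%) and 16 without WT corpus 3 (3.18%, against 1.98%), all lower. With the libraries numbered 1 and 2 alone 19 fell (4.08%, against 4.41% of all RNAs).

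In cauda tissue the full-count copies moved otherwise than most outside copies, but not every copy of the stretch did. Of the 51 copies of the stretch, 13 had a negative fold change in WT (lowest -0.545) and 2 in KO. None of these was a full-count copy. From caput to cauda tissue the full-count copies had a median log2 fold change of 0.51 in WT and 0.89 in KO (smallest adjusted p 0.415 and 0.124, edgeR), which turned to -0.16 and -0.06 when libraries were scaled by their totals alone. The outside copies had medians of -0.64 and -0.33, where the median of all RNAs was -0.05 and 0.03. Scaling by library totals alone moved the median of all RNAs to -0.46 and -0.73. A change of scaling shifts all RNAs of a library alike. The place of the full-count copies above that median could therefore hardly change and is no further support. As a share of all counts, the outside copies held 5.44, 6.09 and 6.35% in WT caput and 3.09, 2.73 and 4.96% in WT cauda, with no overlap. In KO they held 5.11, 4.63 and 6.57% in caput and 2.17, 2.53 and 5.21% in cauda, where KO cauda 3 lay within the range of caput.

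**Figure D4:**
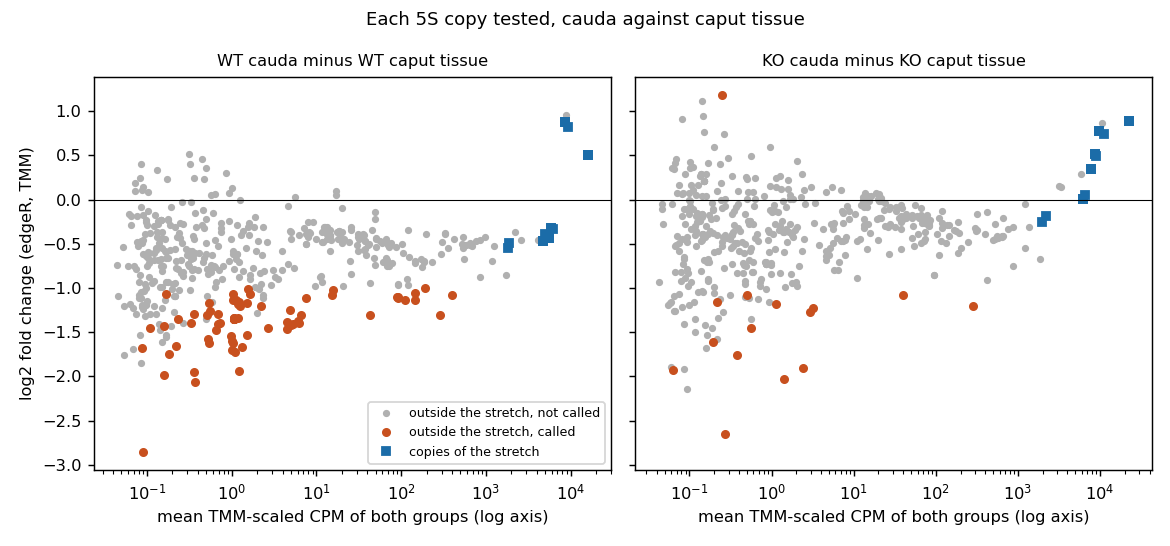
Log2 fold change from caput to cauda of every tested 5S copy in tissue against its mean TMM-scaled CPM (log axis), by genotype, with the copies of the stretch as squares and the called copies in orange. The called copies lie at low levels, and the 32 full-count copies, drawn on each other at the highest level, lie at 0.51 in WT and 0.89 in KO, which turn to -0.16 and -0.06 with scaling by library totals alone.

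In fluid copies moved both ways between segments. From WT caput to WT cauda fluid 4 copies rose (2.56% of 156; 9.69% of all RNAs) and 17 fell (10.9% of 156; 15.4% of all RNAs). The copy rmsk_5S_477 was at 2.79, 1.57 and 5.24 CPM in WT caput and 30.4, 10.8 and 9.18 CPM in WT cauda (log2 fold change 2.38, SE 0.52, adjusted p = 0.00266, edgeR), and its highest value was that of WT cauda 1. rmsk_5S_559 gave a similar value (2.32, SE 0.52, adjusted p = 0.0029). Of the copies that fell, rmsk_5S_857 was at 34.9, 23.1 and 22.2 CPM in WT caput and 1.29, 2.73 and 2.04 CPM in WT cauda (-3.71, SE 0.84, adjusted p = 0.0032), and rmsk_5S_629 at 161, 139 and 98.4 CPM and 46.7, 35.6 and 33.0 CPM (-1.79, SE 0.41, adjusted p = 0.00388). In both the caput and cauda libraries were clearly apart, which the rule for naming them required. The number of calls was 9 without WT caput 1, without WT caput 2 or without WT cauda 1 and 13 without WT cauda 3.

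In KO fluid 5 copies rose from caput to cauda (3.21% of 156, against 11.5% of all RNAs) and 0 fell (14.5% of all RNAs). At an unadjusted p under 0.05, 2 were lower (1.28%, against 21.997% of all RNAs). DESeq2 called 5 higher (2.46%, against 8.95% of all RNAs) and 0 lower (10.5% of all RNAs). rmsk_5S_450 was at 2.35, 3.05 and 3.11 CPM in KO caput and 10.6, 7.61 and 11 CPM in KO cauda (log2 fold change 1.77, SE 0.47, adjusted p = 0.0101, edgeR), and rmsk_5S_477 at 1.98, 2.63 and 2.71 CPM and at 9.63, 6.06 and 9.99 CPM (1.81, adjusted p = 0.0148). The adjusted p of rmsk_5S_477 was 0.0561, 0.0521 and 0.0541 without KO caput 1, KO caput 2 and KO cauda 1. The count of calls was 3 without KO caput 1, 2 without KO caput 3 or without KO cauda 1, and 8 without KO cauda 3. The copies rmsk_5S_450, rmsk_5S_477 and rmsk_5S_559 rose in both genotypes, which is 75% of the 4 in WT and 60% of the 5 in KO. These copies can share reads and are not taken as independent measurements. Of the 17 copies that fell in WT, 12 had a negative and 5 a positive fold change in KO, with a median of -0.14. For rmsk_5S_857 KO cauda was at 14.5, 33.7 and 1.5 CPM, so that only the third KO library lay in the WT range. The difference between genotypes in this change was called for 0 copies (0% of all RNAs, edgeR). At an unadjusted p under 0.05 it was positive for 25 copies (16% of 156; 7.02% of all RNAs), all outside the stretch, and negative for 0 (3.91% of all RNAs). DESeq2 called 1, and edgeR called 1 without KO cauda 3.

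The 4 copies that rose from caput to cauda in WT fluid, rmsk_5S_450, rmsk_5S_477, rmsk_5S_530 and rmsk_5S_559, were all among the 72 that fell in WT tissue. Their log2 fold changes were 2.03, 2.38, 1.39 and 2.32 in fluid and -1.13, -1.13, -1.10 and -1.06 in tissue. For rmsk_5S_559 the tissue libraries were at 192, 192 and 204 CPM in WT caput and 85.4, 87.2 and 110 CPM in WT cauda. In fluid rmsk_5S_530 was at 2.53, 1.57 and 5.24 CPM in WT caput and 14.1, 6.08 and 4.42 CPM in WT cauda, which overlapped. The same levels of 1.57 and 5.24 CPM were those of rmsk_5S_477 in 2 of these WT caput libraries. Copies can share reads, and how many these 4 share is not known, so they are not taken as independent measurements. No test compared the 2 tables.

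In corpus fluid of WT mice 3 copies rose against caput fluid (1.92% of 156, against 8.21% of all RNAs), and 0 fell (9.54% of all RNAs). At an unadjusted p under 0.05, 2 were lower (1.28%, against 18.3% of all RNAs). By DESeq2 16 were higher (7.88%, against 6.86% of all RNAs) and 0 lower (6.19% of all RNAs). rmsk_5S_1148 was at 18.1, 11.7 and 11.1 CPM in WT caput and 23.3, 54.7 and 36.2 CPM in WT corpus (log2 fold change 1.48, SE 0.50, adjusted p = 0.0444, edgeR), and rmsk_5S_474 at 5.46, 3.15 and 2.10 CPM and at 10.3, 10.1 and 9.06 CPM (1.45, adjusted p = 0.0448). The call of each was lost without any 1 of 5 of the 6 libraries, with WT corpus 1 the exception for rmsk_5S_1148 and WT caput 1 for rmsk_5S_474. Over all copies 0 calls were left without WT caput 2, without WT corpus 2 or without WT corpus 3, 1 without WT caput 3 and 8 without WT caput 1, and DESeq2 called 16.

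Between KO and WT, edgeR called copies in corpus fluid alone. There 6 copies rose in KO (3.85% of 156; 13.5% of all RNAs) and 4 fell (2.56%; 6.23% of all RNAs). Both shares lie below those of all RNAs. Of the 6, 5 had fold changes of 1.22 to 1.40, namely rmsk_5S_9, rmsk_5S_556, rmsk_5S_964, rmsk_5S_1169 and rmsk_5S_1208. Copies can share reads, and how many these 5 share is not known, so they are not taken as independent measurements. The means of rmsk_5S_556 and rmsk_5S_964 were nearly equal, at 150 and 149 CPM in KO and 57.1 and 56.9 CPM in WT. rmsk_5S_556 was at 174, 181 and 95.7 CPM in KO corpus fluid and 54.2, 47.6 and 69.5 CPM in WT corpus fluid (log2 fold change 1.40, SE 0.42, adjusted p = 0.0245, edgeR), and rmsk_5S_964 gave 1.39 (adjusted p = 0.0255). In caput fluid rmsk_5S_556 was at 39.6, 75 and 64.0 CPM in KO and 104.9, 61.6 and 82 CPM in WT, and in cauda fluid at 70.0, 149 and 55.6 CPM in KO and 65.6, 46.1 and 45.6 CPM in WT, where the groups overlapped. The sixth copy, rmsk_5S_382, had 5, 5 and 4 counts in the KO libraries and 2, 3 and 1 in the WT libraries. Of the copies that fell, rmsk_5S_1013 had 1 count in all KO corpus libraries together and 53 in WT, a ratio of 0.0488 (exact interval 0.00121 to 0.284), and rmsk_5S_1052 had 1 and 52, a ratio of 0.0498 (0.00124 to 0.290), where the intervals cover counting error only. The calls of both were lost without WT corpus 2, KO corpus 2 or KO corpus 3 (adjusted p 0.0537 to 0.125), and that of rmsk_5S_1052 also without WT corpus 1 (0.0646). rmsk_5S_1034 was at 26.1, 24 and 15.7 CPM in KO and 37.5, 63.7 and 45.3 CPM in WT. The KO corpus libraries were the shallowest of the fluid, with 1948718 to 3373869 counts. The adjusted p of rmsk_5S_556 was 0.0503 with scaling by library totals alone and 0.0653 with no filter, and without any 1 library other than KO corpus 3 it lost its call, with an adjusted p of up to 0.133. The count of 10 calls was 0 without WT corpus 2, 1 without WT corpus 1, 3 without WT corpus 3 or without KO corpus 2, 2 without KO corpus 1 and 5 without KO corpus 3.

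**Figure D5:**
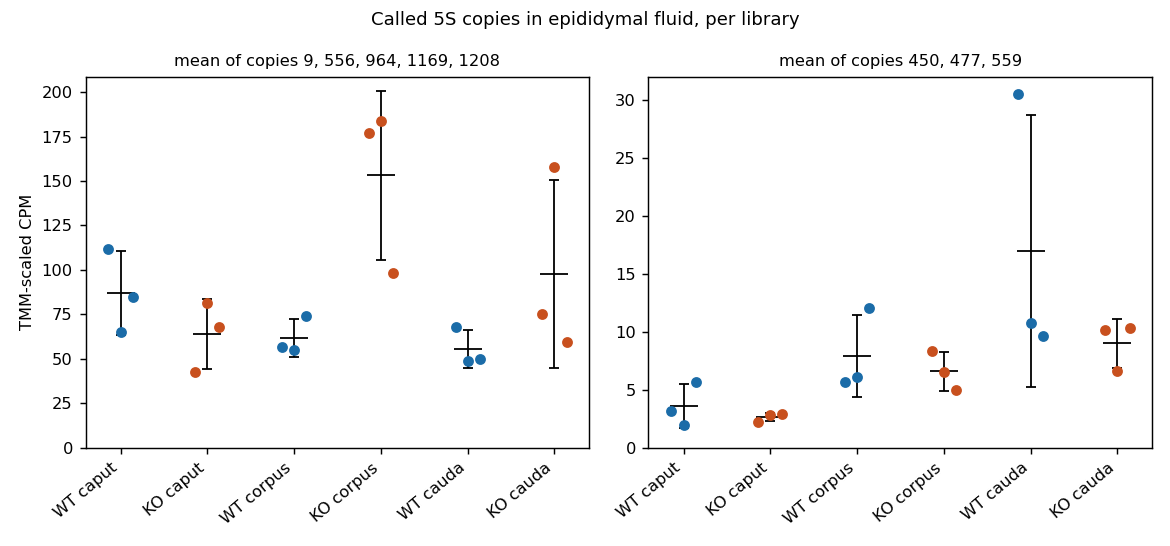
TMM-scaled CPM per fluid library, as the mean of rmsk_5S_9, rmsk_5S_556, rmsk_5S_964, rmsk_5S_1169 and rmsk_5S_1208 (left) and of rmsk_5S_450, rmsk_5S_477 and rmsk_5S_559 (right), with 1 point per library (blue WT, orange KO) and bars for the group mean ± SD. On the left the KO corpus libraries lie above the WT corpus libraries, and on the right every cauda library lies above every caput library of its genotype. Copies averaged in a panel can share reads and are not independent measurements.

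In the other comparisons of KO with WT edgeR called 0 copies. Of all RNAs 0% were called in caput tissue, 0% in corpus tissue, 0.86% in cauda tissue, 0% in caput fluid, 0% in cauda fluid and 0% in sperm. At an unadjusted p under 0.05, 0 copies differed in caput tissue (0.315% of all RNAs higher, 0.659% lower). In corpus tissue 3 were higher (0.588%, against 0.774% of all RNAs) and 1 lower (0.196%, against 7.22%). In cauda tissue 21 were higher (4.12%, against 7.74% of all RNAs) and 0 lower (7.37% of all RNAs). With scaling by library totals alone 0 were higher and 5 lower, and with TMM factors from RNAs other than 5S copies 22 and 0. In caput fluid 0 were higher (5.44% of all RNAs) and 2 lower (1.28%, against 5.14%) by that measure. In cauda fluid 20 were higher (12.8%, against 6.48% of all RNAs), all outside the stretch, and 0 lower (2.82% of all RNAs). In sperm 95 of 234 were higher (40.6%, against 8.02% of all RNAs) and 2 lower (0.855%, against 9.48%). Of the 95, 43 lay in the stretch, among them all 32 full-count copies, which are 1 measurement. The sperm number depended on scaling. It was 90 with TMM factors from RNAs other than 5S copies, 33 with DESeq2 size factors in edgeR and 16 by library totals, with 2, 3 and 6 lower. At the same unadjusted p DESeq2 gave 38 higher (11.6% of 328, against 1.86% of all RNAs) and 4 lower (1.22%, against 10.3%). DESeq2 called 0 in each of the tissue segments and in caput fluid. It called 3 in cauda fluid, all higher (1.48%, against 1.06% of all RNAs). In sperm it called 4, with 3 higher (0.915%, against 0.124% of all RNAs) and 1 lower (0.305%, against 3.30%). In cauda fluid edgeR called 2 without WT cauda 2 and 3 without KO cauda 3, all higher.

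The full-count copies had median log2 fold changes of 0.26, 0.31 and 0.64 in KO against WT caput, corpus and cauda tissue and of -0.40, -0.09 and -0.38 in the same segments of fluid. In cauda tissue this was 0.13, and in cauda fluid -0.03, with scaling by library totals alone, and in corpus fluid it was 0.16 without KO corpus 3. Among the libraries numbered 1 and 2, corpus tissue gave -0.10. The outside copies had medians of -0.10, 0.27 and 0.21 in tissue and -0.44, -0.29 and 0.80 in fluid. In cauda fluid the stretch and the outside copies thus had medians of opposite sign.

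Among copies with a mean over 100 CPM, the largest difference in tissue was that of rmsk_5S_733 in cauda, at 7870, 10558 and 11966 CPM in KO and 4467, 4140 and 7232 CPM in WT, which did not overlap (log2 fold change 0.94, SE 0.40, adjusted p = 0.258, edgeR). With the library number as a block, which here joins same-numbered KO and WT libraries, rmsk_5S_733 and its partner rmsk_5S_746 were the 2 copies called. That is 0.392% of the copies, where 5.79% of all RNAs were called higher. These 2 copies form a set of equal counts and are not independent measurements. The log2 fold change of rmsk_5S_733 was 1.0 in that fit, with an adjusted p of 0.0177 (edgeR). The lowest in cauda tissue was rmsk_5S_582 at -0.28. In caput tissue the extremes were rmsk_5S_559 at -0.38 and rmsk_5S_377 at 0.32, and in corpus tissue rmsk_5S_850 at -0.19 and rmsk_5S_1079 at 0.65. In fluid they were rmsk_5S_14 at -0.73 and rmsk_5S_210 at -0.11 in caput, rmsk_5S_1098 at -0.88 and rmsk_5S_1175 at 0.11 in corpus and rmsk_5S_551 at -0.70 and rmsk_5S_1098 at 0.22 in cauda. The adjusted p of these lay between 0.127 and 0.99964. For 5 of them the sign was not stable: rmsk_5S_377 went to -0.01 without KO caput 2, rmsk_5S_850 to 0.23 without WT corpus 3, rmsk_5S_210 to 0.17 without WT caput 1, rmsk_5S_1175 to -0.20 without KO corpus 2, and rmsk_5S_1098 in cauda to -0.18 without KO cauda 2.

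In sperm the full-count copies had a median log2 fold change of 0.98 in KO against WT (smallest adjusted p 0.217, edgeR), or 0.56 with scaling by library totals alone. All 51 copies of the stretch were positive, and so were 154 of the 183 outside copies that were tested. The most counted copies over the 8 libraries show how the libraries lay: rmsk_5S_744 was at 1069, 533, 998 and 1653 CPM in WT and 2860, 1895, 1631 and 1980 CPM in KO, and WT sperm 4 lay within the KO range. The largest difference over 100 CPM was that of rmsk_5S_332, an outside copy, at 503, 246, 316 and 413 CPM in WT and 1285, 948, 848 and 803 CPM in KO, with no overlap. Its log2 fold change was 1.39 (SE 0.37, adjusted p = 0.116, edgeR), with 1.19 and an adjusted p of 0.0269 by DESeq2. The lowest was rmsk_5S_178, at -0.15, or 0.11 without WT sperm 3 and 0.22 among the 4 deep libraries. Without WT sperm 4 edgeR called 61 of 262 copies, 59 higher (22.5%, against 4.2% of all RNAs) and 2 lower (0.763%, against 7.3%). Among the 59 was rmsk_5S_332 (1.51, adjusted p = 0.0279, edgeR). Of the 59, 43 lay in the stretch, including the 32 full-count copies. Among the 4 deep libraries it called 0.

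The reference 5S_rRNA was called in no comparison. Its log2 fold changes in KO against WT were 0.27, 0.34 and 0.63 in caput, corpus and cauda tissue, -0.41, -0.06 and -0.42 in fluid and 0.88 in sperm (adjusted p = 0.275, edgeR). Of the 5 nuclear rRNA sequences tested, 0 were called between genotypes. From WT caput to WT cauda tissue 3 of them rose, 18S_rRNA by 3.97, 28S_rRNA_1 by 3.31 and 28S_rRNA_2 by 3.37, while 5S_rRNA was at 0.54. From KO caput to KO cauda 4 rose, 18S_rRNA by 4.45 and 5_8S_rRNA by 1.47 among them, while 5S_rRNA was at 0.90 (adjusted p = 0.142). The 18S and 28S sequences thus rose in the cauda tissue of both genotypes, where the share of 5S copies was lower. In fluid 5_8S_rRNA, which pairs with 28S rRNA in the large subunit, rose from WT caput to WT corpus (1.97), from WT caput to WT cauda (2.08) and from KO caput to KO cauda (1.32), and both 28S sequences fell from WT caput to WT cauda (-1.24 and -1.10).

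Of 9 other RNA polymerase III transcripts, 4 rose from KO caput to KO cauda tissue, namely Rny1-201, a Y RNA bound by Ro60 (1.53), Rn7sk-201, which holds the elongation factor P-TEFb inactive (1.71), Rmrp-201, the RNA of RNase MRP (1.56), and Rpph1-201, the RNA of RNase P (1.24), and 0 were called in the other tissue comparisons. In corpus fluid 3 of the 8 tested rose in KO, Rny1-201 (2.05), Rny3-201 (2.04) and Rn7sk-201 (1.48). From WT caput to WT cauda fluid 3 fell, Rny3-201 (-3.44), Rn7sk-201 (-1.64) and Vaultrc5-201, a vault RNA (-1.42), and from KO caput to KO cauda fluid Rn7sk-201 fell (-1.89). In none of these comparisons was 5S_rRNA called.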

How the data were processed

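The authors trimmed adapters and the bases of the molecular identifier with cutadapt, and mapped and counted reads with tRAX. Reads were mapped against mm10 with the RepeatMasker rRNA repeats and added rRNA reference sequences. The bowtie2 step of tRAX capped the alignments reported per read, and the best of these were kept, with some exceptions. The submitters' processing notes also name UMI-tools, with no role. The deposited values are raw counts per RNA in 1 table per material. A read with several equally good matches added 1 to each match that was kept, so that copies share reads and their counts are not independent. All 43 libraries were grouped by title.

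Counts were filtered by expression within groups (minimum count 10, minimum total 15), scaled by TMM and tested with the quasi-likelihood test of edgeR 4.0.16 in R 4.3.3, with all groups of a table in 1 fit and Benjamini-Hochberg adjustment over all RNAs that passed. Calls needed an adjusted p under 0.05 together with a log2 fold change above 1 in size. The study calls the libraries of a group biological replicates, each from 3 pooled mice in fluid and sperm, and does not say how many mice a tissue library holds. Shares per library were compared by 2-sided exact permutation tests, adjusted over 39 comparisons, and count ratios carry exact 95% intervals for counting error only. The scripts were tested on simulated data. Copies were named by rule: the 3 with the highest mean CPM of a table, up to 2 called copies with separate groups in each direction with the smallest p, and the lowest and highest fold changes over 100 CPM between genotypes. Copies named beyond it, and the sets of equal counts, were chosen after their values were seen. The members and lists were chosen with earlier results of these data known. Gene numbers came from GENCODE M21, and sequences of the genes are not reported here.

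Alternatives were other size factors, library totals alone, TMM factors from RNAs other than 5S copies, no filter, DESeq2 1.42.0, only the groups compared, leaving out each library, and the library number as a block. For comparisons of segments that block joined same-numbered libraries within a genotype. For KO against WT it joined same-numbered libraries of both genotypes, which come from different animals. Same-numbered tissue libraries deviated together, with every correlation of deviations over 0.1, between KO and WT cauda (0.272 to 0.596), WT cauda and caput (0.306 to 0.633), WT corpus and caput (0.312 to 0.555) and KO cauda and caput (0.175 to 0.602), so the numbers were taken as pairing these.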

Additional observations from a re-analysis of the deposited data

Results flagged for a closer look

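In groups of 4 sperm libraries, 46 checks of a single library lying far from the others of its group were made, and 3 marked a value, where chance marks about 1 in 20 groups. The single copy rmsk_5S_732 of the stretch was at 48.2% of the full-count mean in WT sperm 4, against 74.7 to 80.1% in the other WT libraries. In KO sperm 4 the 10 most counted copies held 19.8% of 5S copy counts, against 19.57 to 19.59% in the other KO libraries. In the same library the outside copy rmsk_5S_596 was at 11.9% of the full-count mean, against 14.7 to 14.8% in the others. Both WT sperm 4 (3025269 counts) and KO sperm 4 (3618739 counts) are shallow libraries, and the part of depth in these values was not tested.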

How the results depend on the processing

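The count of called copies was within 1.5 times the value given in 103 of 127 alternatives that kept all or a chosen set of libraries, and in 71 of 103 that left out 1 library. It moved as follows. In KO against WT corpus fluid it was 1 by library totals alone, 4 with no filter and 6 with only the groups compared. DESeq2 gave 3 in KO against WT cauda fluid, 4 in sperm, 8 from WT caput to corpus tissue, 16 from WT caput to corpus fluid and 1 for the difference between genotypes in fluid. From WT caput to corpus fluid it was 6 with DESeq2 size factors in edgeR, 1 by library totals, 8 with TMM factors from other RNAs and 23 with only the groups compared. From WT caput to cauda it was 44 in tissue and 11 in fluid with only the groups compared, and in fluid 12 by library totals and 13 with no filter. From KO caput to cauda tissue it was 76 by library totals and 6 with only the groups compared. Other alternatives were chosen after seeing the data: with libraries numbered 1 and 2 alone, WT caput to corpus tissue gave 19 and KO caput to cauda tissue 51, and the 4 deep sperm libraries gave 0. With the library number as a block, the pairing gave 2 in KO against WT cauda tissue, 9 from WT caput to corpus tissue, 92 from WT caput to cauda tissue and 29 from KO caput to cauda tissue. Where same-numbered libraries did not deviate together, the block gave 12 from WT caput to corpus fluid, 10 in KO against WT corpus fluid, 24 from WT caput to cauda fluid, 7 from KO caput to cauda fluid and 0 in sperm. The cause of these moves was not tested.

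Leaving out 1 library gave 0 to 5 calls in KO against WT corpus fluid, 0 to 3 in cauda fluid and 0 to 61 in sperm. It gave 0 to 16 from WT caput to corpus and 30 to 83 from WT caput to cauda in tissue, 0 to 8 and 9 to 28 in fluid, 7 to 57 and 2 to 8 from KO caput to cauda in tissue and fluid, and 0 to 1 for the difference between genotypes in fluid. As log2 ratios of mean shares, the share of 5S copies turned sign as a ratio to counts other than rRNA in KO against WT corpus tissue (-0.0879) and cauda fluid (0.0125) and from caput to WT corpus (0.0483), WT cauda (0.0759) and KO cauda tissue (0.230), and for the most counted copy alone from WT caput to corpus tissue (0.0363). It also turned within the ranges without 1 library in KO against WT corpus tissue (-0.000288 without WT corpus 1; range -0.000288 to 0.0325), corpus fluid (0.0205 without WT 2 and 0.0884 without KO 3; -0.301 to 0.0884) and cauda fluid (0.206 without WT 1 and 0.286 without KO 3; -0.260 to 0.286), and from WT caput to cauda fluid (-0.0772 without WT cauda 1; -0.0772 to 0.286). As a ratio to counts other than rRNA, the change from WT caput to WT cauda tissue turned to -0.244 without WT cauda 2 (range -0.244 to 0.268), and that of KO ran from 0.109 to 0.328; leaving out libraries here was chosen after seeing the data. Of the 31 fold changes of named copies, 6 turned sign, in 18 alternatives, and none of these 6 was called. Over all 31, 11 calls were lost and 2 gained over 257 alternatives, with 32 lost and 1 gained over 188 that left out 1 library. Depth limits the KO corpus fluid and 4 sperm libraries, where many outside copies had under 10 counts.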
